A study of Mus musculus with 2 samples.

Results

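Among 5628 cells from a macrophage sort of the mouse small intestine, 207 carried transcripts of at least a part of a gene set used to mark perivascular-like macrophages. These 207 cells are described here. A cell was a member when it held at least 3 unique molecular identifiers (UMIs, each a single captured transcript end) of Cbr2, F13a1, Folr2 and Lyve1 together, where cells of fewer than 200 genes or over 10% mitochondrial UMIs had been set aside. Members were thus chosen by their own counts of these 4 genes. There were 101 members among 3016 cells of wild-type mice and 106 members among 2612 cells of mice lacking the chemokine receptor Ccr2. Each member was set against 2 cells of the same lane that were nearest to it in total UMIs and held 0 UMIs of the 4 genes, giving 202 wild-type and 212 knockout comparators. Median depth was 6804 UMIs in wild-type members and 6804.5 in their comparators, and 3558 and 3556 UMIs in the knockout.

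Tissue macrophages differ by the niche they occupy. Macrophages that lie along blood vessels take up material from the circulation and carry scavenger and lectin receptors such as CD163 and the mannose receptor, while those of the gut lamina propria stand near the epithelium and are rich in antigen-presenting molecules. Much of the gut population is renewed from blood monocytes, which use CCR2 to leave the bone marrow, and a part of it lives long in the tissue without such renewal. Among the rule genes, Lyve1 encodes a hyaluronan receptor that is also found on lymphatic endothelium, Folr2 a folate receptor, F13a1 the A subunit of coagulation factor XIII, and Cbr2 a carbonyl reductase.

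Per the labels, C57BL/6J males supplied by Janvier were the wild type, and the CCR2-/- animals came from a JAX strain bred in-house, with no sex given, so that genotype and source were the same split and cannot be told apart. No treatment, time or age is given. Each library pooled 3 to 4 intestines that had been freed of epithelium. The sort took live CD45+ cells that were CD11b+, MHC class II+ and CD64+ and lacked lymphocyte, eosinophil and neutrophil markers and Ly6C, so cells low in MHC class II or high in Ly6C were not collected. There was 1 library per genotype. The 2 lanes of the wild-type library were told apart by the suffix of the cell barcodes alone and are not counted as replicates. No value therefore has a biological replicate, no test was made, and every interval covers counting error only.

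The deposited matrices held 3054 wild-type cells with 20766579 UMIs and 2774 knockout cells with 7506405 UMIs. The lanes of the wild type shared 5 barcodes, and wild-type lane 1 and the knockout shared 6, of which 1 involved a member. Ccr2 gave 179 UMIs in wild-type members (228 CPM, counts per 1000000 summed UMIs) and 2 UMIs in knockout members (4.89 CPM). The macrophage label held for the members as a group: all 12 core macrophage genes passed the minimum level in each library, and none of them differed 2-fold from comparators in either. In 3 knockout members, however, C1qa, C1qb and C1qc together gave fewer than 5 UMIs. On inspection after the values were seen, 2 of these 3 held UMIs of Lyve1 alone among the rule genes (4 and 12), 0 and 1 C1q UMIs, and 26 and 35 UMIs of lymphatic endothelial markers. These 2 cells go against the macrophage label.

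F13a1 carried the selection in most members. It was detected in 91.1% of wild-type and 91.5% of knockout members, Cbr2 in 61.4% and 52.8%, Folr2 in 44.6% and 34.9%, and Lyve1 in 37.6% and 42.5%. All 4 genes were detected in 14 wild-type and 6 knockout members, and a single gene in 19 and 21, of which F13a1 was that gene in 15 and 17. The genes occurred together across all cells: F13a1 was found in 70.0% of the wild-type cells with Cbr2 and in 4.14% of those without, and in 62.4% and 6.77% in the knockout. These values chose the members and are a description.

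Over all cells passing the filter, the level of F13a1 was 21.1 CPM (Poisson interval at the 95% level, 19.2 to 23.2) in the wild type and 61.1 CPM (55.6 to 67.1) in the knockout. Cbr2 stood at 12.8 and 20.8 CPM, Folr2 at 7.50 and 12.2 CPM, and Lyve1 at 7.54 and 20.9 CPM. All 4 were thus higher in CPM in the knockout library. Cells with at least 3 T or B lymphocyte UMIs and under 5 C1q UMIs, a class defined after the values were seen, gave no UMI of any of the 4 genes in 9 wild-type and 26 knockout cells.

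The upstream sequences of 3 of the rule genes and of Cd163 are shown because these genes were detected in the same cells and a UMI of Cd163 was found in most members. They come from RefSeq (GRCm38.p6), are given 5′ to 3′ on the sense strand, and end at the base before the most upstream annotated start nearby. Capitals mark TGCTGA, the core of the MAF recognition element, and GAGGAA, the core of the PU.1 motif, on either strand, with no overlap between them. Folr2 lies at chr7:101845332-101845581 (minus strand), F13a1 at chr13:37049289-37049463 (minus), Cbr2 at chr11:120732115-120732271 (minus) and Cd163 at chr6:124304401-124304650 (plus).
Cbr2: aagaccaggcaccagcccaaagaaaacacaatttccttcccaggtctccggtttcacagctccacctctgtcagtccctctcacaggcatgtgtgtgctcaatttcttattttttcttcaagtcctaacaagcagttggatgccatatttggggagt
F13a1: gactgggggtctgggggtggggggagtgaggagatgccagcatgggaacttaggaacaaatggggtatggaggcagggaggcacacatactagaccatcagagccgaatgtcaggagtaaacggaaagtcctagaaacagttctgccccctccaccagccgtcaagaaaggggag
Folr2: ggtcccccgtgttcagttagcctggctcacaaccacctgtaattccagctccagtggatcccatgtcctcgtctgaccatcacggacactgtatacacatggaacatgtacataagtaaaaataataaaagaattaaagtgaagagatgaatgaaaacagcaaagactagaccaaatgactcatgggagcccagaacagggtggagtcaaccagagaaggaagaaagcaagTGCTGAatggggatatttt
Cd163: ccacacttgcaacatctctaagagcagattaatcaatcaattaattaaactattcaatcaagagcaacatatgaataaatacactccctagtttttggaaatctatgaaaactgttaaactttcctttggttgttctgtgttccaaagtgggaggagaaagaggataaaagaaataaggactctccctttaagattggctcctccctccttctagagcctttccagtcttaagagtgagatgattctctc
TGCTGA occurred once, in Folr2, and GAGGAA in none of the 4 windows. Over 32851 promoters TGCTGA was found in 16.1% of 250-base windows, the length shown for Folr2 and Cd163, and GAGGAA in 23.3%. In windows of 157 bases, as for Cbr2, the shares were 10.5% and 15.1%, and in windows of 175 bases, as for F13a1, 11.6% and 16.7%. These are matches of letters only, and a count of 3′ ends does not show which start site was used.

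The share of members depended on depth, because the rule counts UMIs. With every cell thinned at random to 1500 UMIs, the rule was met by 0.866% in the wild type (exact Clopper-Pearson bounds 0.567% and 1.27%) and 1.57% in the knockout (1.07% and 2.23%), with 15 and 642 shallower cells left out. Without thinning the shares were 3.35% (2.74% to 4.05%) and 4.06% (3.33% to 4.89%). The thinned shares of the wild-type lanes were 0.996% and 0.561%, in 2109 and 892 cells. Thinned to 2000 UMIs the shares were 1.29% (0.910% to 1.77%) in the wild type and 2.70% (1.96% to 3.61%) in the knockout. At this depth 148 wild-type and 1017 knockout cells were left out as shallower. The intervals of the genotypes overlapped at 1500 UMIs and without thinning but not at 2000, and a difference between animals could not be assessed.

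A gene was compared between members and comparators when its mean of both groups was at least 20 CPM, and it was called at a 2-fold difference of CPM, with 1 CPM added to each. In the wild type 3.75% of 5087 genes were called higher in members and 2.99% lower, and in the knockout 6.47% and 6.23% of 5472. The counts within gene lists given below are to be read beside these shares. Of 4650 genes outside the barred classes compared in both libraries, 2.15% (100 genes) were called higher and 1.74% (81 genes) lower in both and on the same side in each wild-type lane. Named genes are those with the largest ratios in both libraries. All ratios describe these libraries.

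**Figure D1:**
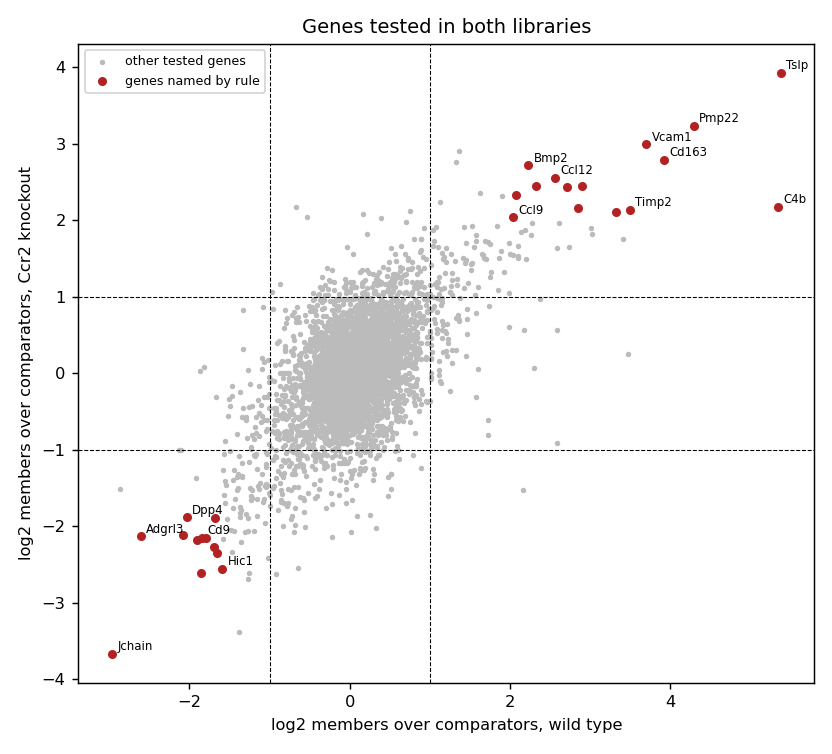
Log2 ratio of members to depth-matched comparators in the wild type (x axis) and the Ccr2 knockout (y axis), 1 point per gene compared in both; dashed lines mark 2-fold. The genes named by the rule (red) lie beyond the lines in both libraries, from Tslp (5.38 and 3.92) to Jchain (-2.97 and -3.67).

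Part of the scavenger and lectin receptors were higher in members. Of this list 4 of 16 genes compared were called higher in the wild type and 8 of 17 in the knockout, none lower, with 11 and 12 above 0. Cd163, the receptor for haemoglobin bound to haptoglobin, stood at 281 CPM in lane 1 and 302 CPM in lane 2 of wild-type members and at 548 CPM in knockout members, against 19.5, 11.9 and 78.3 CPM in comparators. The log2 ratio of Cd163 was 3.93 in the wild type (fold interval 10.8 to 24.6) and 2.79 in the knockout (5.28 to 9.39). A UMI of Cd163 was found in 73.3% of wild-type members and in 10.4% of comparators. Mrc1, the mannose receptor, was 959.6 against 294 CPM in the wild type and 1291 against 458 CPM in the knockout. Cd209f, a C-type lectin, was 78.3 against 3.67 CPM in the knockout. In the wild type it lay under the minimum level and was not called, with 20 UMIs in members and 0 in comparators (at least 13.3-fold higher at a floor of 3 counts); 16 of these UMIs were in the 22 members of lane 2 and 1 member held 35.0%. Of the list of perivascular and resident macrophage genes, 12 of 15 compared were called higher in the wild type and 13 of 17 in the knockout, with median log2 ratios of 1.55 and 1.55 against 0.06 and 0.06 over all genes compared; this list was assembled with earlier results of these data known.

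Some genes of iron and lipid handling were also higher. Of 11 iron and haem genes, 4 were called higher in the wild type and 3 in the knockout, and none lower. Over all genes compared, 3.75% and 6.47% were called higher. Hmox1, which breaks down haem, was 109.6 against 47.2 CPM in the wild type and 205 against 74.6 CPM in the knockout. Trf, the iron carrier transferrin, had log2 ratios of 1.76 and 1.25. Slc40a1, which exports iron from the cell, had 1.46 in the wild type and 0.52 in the knockout. Of the lipid handling list, 4 of 11 genes were called higher and none lower in the wild type, and 5 of 14 higher and 1 lower (Lgals3) in the knockout, with medians of 0.35 and 0.09. Cd36, a receptor for oxidised lipoproteins and apoptotic cells, was 173 against 25.5 CPM in the wild type and 423 against 77.1 CPM in the knockout. Abca1, Pltp and Trem2, which act in lipid efflux, transfer and sensing, had log2 ratios between 1.09 and 1.70 in the libraries.

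The members were rich in transcripts of some chemokines that attract monocytes and other leukocytes, and lower in others. Of the chemokine list, 7 of 14 were called higher and 3 lower in the wild type, and 7 of 17 higher and 5 lower in the knockout. The 7 higher were Pf4, Ccl2, Ccl6, Ccl7, Ccl8, Ccl9 and Ccl12 in each. Ccl12 was 1622 and 1553 CPM in the wild-type lanes and 1908 CPM in the knockout, against 276, 258 and 323 CPM in comparators. Ccl7 was 569.6 against 134 CPM in the wild type and 3404 against 678 CPM in the knockout. Ccl8 was 1573 against 217 CPM in the wild type, where 1 member held 25.8% of its UMIs, and 692 against 154 CPM in the knockout. Pf4, platelet factor 4, was 3107 against 936 CPM and 2558 against 778 CPM. Ccl24 was lower in each library, at log2 -1.49 and -1.02, and Cxcl9, which attracts activated T cells, was 91.8 against 334 CPM and 51.4 against 319 CPM. The other list genes called lower were Cxcl10 and Ccl5 in the wild type, and Cxcl12, Cxcl13, Cxcl14 and Cxcl16 in the knockout.

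**Figure D2:**
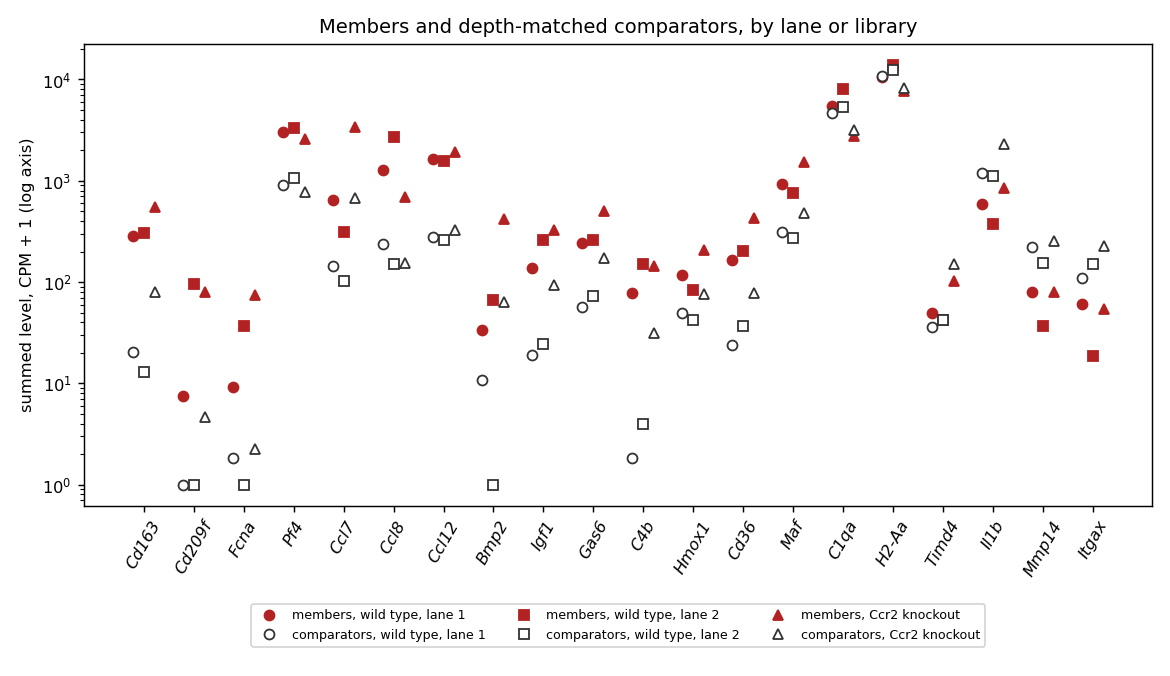
Summed level of 20 genes in CPM plus 1 (log axis) in members (filled) and depth-matched comparators (open), for wild-type lane 1 (circles), wild-type lane 2 (squares) and the Ccr2 knockout (triangles). Receptor genes other than Timd4, and chemokine and growth factor genes, are higher in members in each. C1qa and H2-Aa lie close together, and Il1b, Mmp14 and Itgax are lower in members. Timd4 is lower in members in the knockout.

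Several growth factor genes and the complement gene C4b had large ratios. Tslp, a cytokine better known from epithelium, gave 32 UMIs in wild-type members and 0 in comparators (at least 21.3-fold higher), and 51.4 against 2.45 CPM in the knockout. Bmp2, a signal to enteric neurons, was 39.5 against 7.65 CPM in the wild type and 416 against 62.4 CPM in the knockout. Igf1 had log2 ratios of 3.03 and 1.81, and Gas6, the ligand of the receptors Axl and Mertk, 2.04 and 1.55. C4b was 91.8 against 1.27 CPM in the wild type (72.0-fold, interval 19.2 to 606) and 142 against 30.6 CPM in the knockout. Of the growth factor list, 3 of 7 were higher and none lower in the wild type, and 3 of 10 were higher and 2 lower (Pdgfa and Pgf) in the knockout.

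The remaining named genes that were higher covered adhesion, signalling and proteolysis. Vcam1, an adhesion molecule for leukocytes, was 103 against 7.01 CPM in the wild type and 670 against 83.2 CPM in the knockout. Pmp22, a membrane protein best known from myelin, had log2 ratios of 4.29 and 3.24. Blnk, an adaptor below immune receptors, had 2.90 and 2.45, and Alox5ap, which supplies 5-lipoxygenase with substrate, 2.33 and 2.45. The inhibitors Timp2 (3.50 and 2.14) and Serpinb6a (3.32 and 2.11) act on metalloproteases and serine proteases. Ctsd, a lysosomal protease, was the single lysosomal gene of 16 that was higher in each, and Acp5, an acid phosphatase, the single lower. The lysosome list as a whole was thus near the share over all genes compared. That share was 3.75% higher and 2.99% lower in the wild type, and 6.47% and 6.23% in the knockout. Of 26 transcription factors listed, Maf was called higher in both libraries, at 884 against 301 CPM and 1521 against 485 CPM, and Mef2c likewise. These were the 2 called of 18 compared in the wild type, while in the knockout Irf4 and Id2 were also higher and Runx3, Bhlhe40 and Ahr lower, of 22 compared.

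Several inflammatory, matrix and activation genes were lower in members. Il1b was 593 and 373 CPM in the wild-type lanes and 856 CPM in the knockout, against 1204, 1109 and 2317 CPM in comparators. Ptgs2, which makes prostaglandins, had log2 ratios of -1.39 and -1.50. Of the list of inflammatory cytokines, Il1b and Ptgs2 were the only genes called among 5 compared in each library. Of these 5, 2 were above 0 in the wild type and 1 in the knockout. Both receptor chains for GM-CSF, Csf2ra and Csf2rb, were lower (-1.15 and -1.18 in the wild type, -1.25 and -1.08 in the knockout), while Csf1r, the receptor for M-CSF, was 985 against 876 CPM and 1303 against 1554 CPM. Mmp2, Mmp13, Mmp14 and Ecm1 were called lower in each library, among 9 and 11 matrix and protease genes compared. Fn1 and Sparc were also lower in the knockout, and Cst3 and Timp2 were higher in each. The 6 fibroblast marker genes summed to 53.8 CPM in knockout members and 398 CPM in their comparators, where 1 comparator held 99 UMIs. The part of such cells in the Fn1 and Sparc values was not tested. Itgax, the CD11c chain, was 51.0 against 118 CPM and 53.8 against 228 CPM. Of the named lower genes, Cd9 was 63.7 against 231 CPM and 61.1 against 275 CPM, and Apol7c was 475 against 1501 CPM and 183 against 937 CPM. Jchain, a plasma cell gene, had log2 ratios of -2.97 and -3.67, but 1 comparator held 57.3% of its UMIs in the wild type and 89.5% in the knockout. The other 9 named genes, which include Adgrl3, Dpp4 and Hic1, had log2 ratios between -2.61 and -1.59 in the wild type; in the knockout they lay between -2.61 and -1.88.

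Genes of antigen presentation and of macrophage identity mostly differed by less than 2-fold. H2-Aa was 11267 against 11165 CPM in the wild type and 7637 against 8202 CPM in the knockout. The median of the MHC class II list was -0.15 and -0.35, with 6 of 8 genes compared below 0 in the wild type and 7 of 7 in the knockout, and of its genes H2-DMb2 alone was called, lower in the wild type. C1qa had log2 ratios of 0.30 and -0.19. Timd4 and Cd4 mark long-lived gut macrophages, and Timd4 was 47.2 against 36.3 CPM in the wild type and 100.3 against 150.5 CPM in the knockout. UMIs of both Cd163 and Timd4 were found in 15.8% of the wild-type members, and in 22.6% of those of the knockout, against 0.9901% and 7.08% of comparators. Cd163 without Timd4 was found in 58 of 101 members and 19 of 202 comparators of the wild type. In the knockout it was found in 49 of 106 and 21 of 212. Timd4 without Cd163 was found in 4 and 29 wild-type cells and in 9 and 63 knockout cells. The values of this pair therefore do not show that Timd4 itself was more frequent in members. Both Timd4 and Cd4 were found in 11.9% of wild-type members and 11.9% of comparators, and in the knockout in 12.3% and 19.8%. The pair of long-lived markers was thus not more frequent in members. Ccr2 stood at 228 CPM in wild-type members and 331 CPM in comparators, a log2 ratio of -0.53.

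The level of several of these genes moved with the number of rule-gene UMIs in a cell, including below the threshold. In the wild type Cd163 was 19.3 CPM in cells with 0 such UMIs, 67.0 with 1, 189 with 2, 151 with 3, 243 with 4, 345 with 5 to 9 and 362 with 10 or more. Cells just outside the rule, with 2 UMIs (49 wild-type cells), thus had a level near that of cells just inside it, with 3 (23 cells). In the knockout the same classes had 94.4, 401, 294, 403, 611, 606 and 513 CPM. Ccr2 in the wild type was 327 CPM at 0, 463 at 1 and 41.8 CPM at 10 or more, while H2-Aa ran from 10032 to 12106 CPM. The classes of 10 or more held 26 wild-type and 5 knockout cells.

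**Figure D3:**
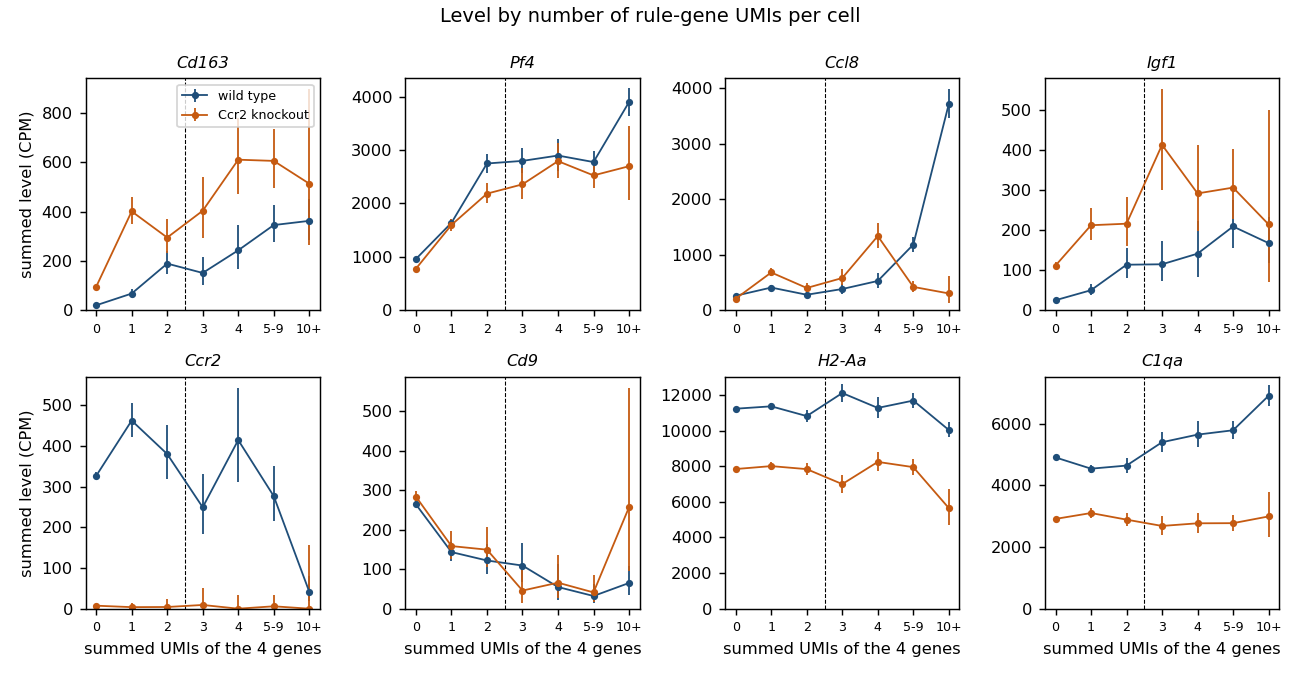
Summed level in CPM (y axis) of 8 genes by the number of UMIs of the 4 rule genes in a cell (x axis), for the wild type (blue) and the Ccr2 knockout (orange); bars are Poisson intervals at the 95% level and the dashed line is the member threshold. Cd163 and Pf4 are higher above 0 UMIs in each library, and Ccr2 in the wild type is lowest at 10 or more UMIs.

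Members differed among themselves by which rule genes they carried; these splits were chosen after values were seen. In the wild type the 15 members with F13a1 alone (median 9446 UMIs) had 71.7 CPM of Cd163 and 515 CPM of Ccr2, while the 82 members with 2 or more genes (median 6764.5 UMIs) had 330 CPM of Cd163 and 161 CPM of Ccr2. Ccl8 stood at 169 and 1958 CPM and Ccl12 at 299.7 and 1971 CPM in the same groups. Wild-type comparators had 17.8 CPM of Cd163, 331 of Ccr2, 217 of Ccl8 and 272 of Ccl12. The wild-type members with F13a1 alone were thus close to comparators in Ccl8 and Ccl12, and above them in Ccr2 and Cd163. Their Ccr2, Ccl8 and Ccl12 values go against the perivascular-like name for these cells. In the knockout the difference in Cd163 was smaller, 382 CPM with F13a1 alone (17 cells) and 568 CPM with 2 or more genes. Ccl8 there was 72.9 and 818 CPM. Between members with and without Lyve1, Cd163 was 329 and 255 CPM in the wild type, and 543 and 551 CPM in the knockout. Ccl8 in the same split was 1873 and 1364 CPM in the wild type and 175 and 1085 CPM in the knockout. Single members held 25.8% of the members' Ccl8 UMIs in the wild type and 22.6% in the knockout, which limits these splits of Ccl8.

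Markers of other cell types were measured in the same cells. At least 1 UMI of the 6 smooth muscle and pericyte genes was found in 42 of 101 wild-type members (41.6%, 31.9% to 51.8%) and 22 of 202 comparators (10.9%, 6.95% to 16.02%), and in 26 of 106 knockout members (24.5%, 16.7% to 33.8%) and 23 of 212 comparators (10.8%, 7.003% to 15.8%). The highest number in a wild-type member was 16 UMIs. The summed level of the list was 135 against 19.1 CPM in the wild type and 90.5 against 268 CPM in the knockout, where 1 comparator held 174 UMIs. Lymphatic markers summed to 2.55 against 0 CPM in the wild type and 159 against 4.89 CPM in the knockout, most of it in the 2 members named above. The part of these transcripts in the differences was not tested. With at least 5 C1q UMIs required of members and comparators, 95 of the 100 genes higher in both libraries and 79 of the 81 lower were still called; this filter removed 0 wild-type and 3 knockout members, so the 42 wild-type members with smooth muscle UMIs stayed in.

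Knockout and wild-type members were then compared with each other, beside the same comparison of comparators, which share no cells with them. Of 2657 genes with a mean of at least 50 CPM, 9.26% were 2-fold higher and 5.65% lower in knockout members, 396 genes in all. In comparators 387 of these (97.7%) had the same sign and 212 (53.5%) were also 2-fold different in the same direction. Of all 2657 genes, 81.5% had the same sign. Bmp2 was 416 CPM in knockout and 39.5 CPM in wild-type members, a log2 ratio of 3.36, and 2.87 in comparators. Ccl4, a chemokine, had 3.27 and 2.51, Nfkbiz, a regulator of NF-kappaB targets, 2.96 and 2.20, and Mt2, a metallothionein, 5.05 and 2.72. Among the lower, Ccr2 had -5.28 and -5.31, and Emb, an adhesion protein, -2.44 and -1.48. The 12 immediate-early genes listed, such as Fos and Jun, summed to 27499 CPM in knockout and 5993 CPM in wild-type members. In comparators they summed to 23830 and 7264 CPM. Genotype, source and library were the same split and cannot be told apart.

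The highest ratios of all belonged to Mmrn1 and a copy of Ccl21a, genes of lymphatic endothelium. Mmrn1 gave 44 UMIs in knockout members and 0 in wild-type members, and all 44 were in the 2 cells that went against the macrophage label. The Ccl21a copy (ENSMUSG00000094686), which shares near-identical sequence with other copies so that its counts are uncertain, gave 123 UMIs and 1 UMI, and the same 2 cells held 122 of the 123. These ratios therefore describe 2 cells and not the members as a group. Cd163 was 0.94 higher (log2) in knockout members and 2.07 higher in knockout comparators, and Vcam1 2.69 and 3.39. Ccl8 was lower in knockout members, at -1.18 (-0.49 in comparators), and Pf4 was at -0.28. C1qa (-1.11) and Lyz2 (-1.24) were lower too, with -0.62 and -1.25 in comparators.

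**Figure D4:**
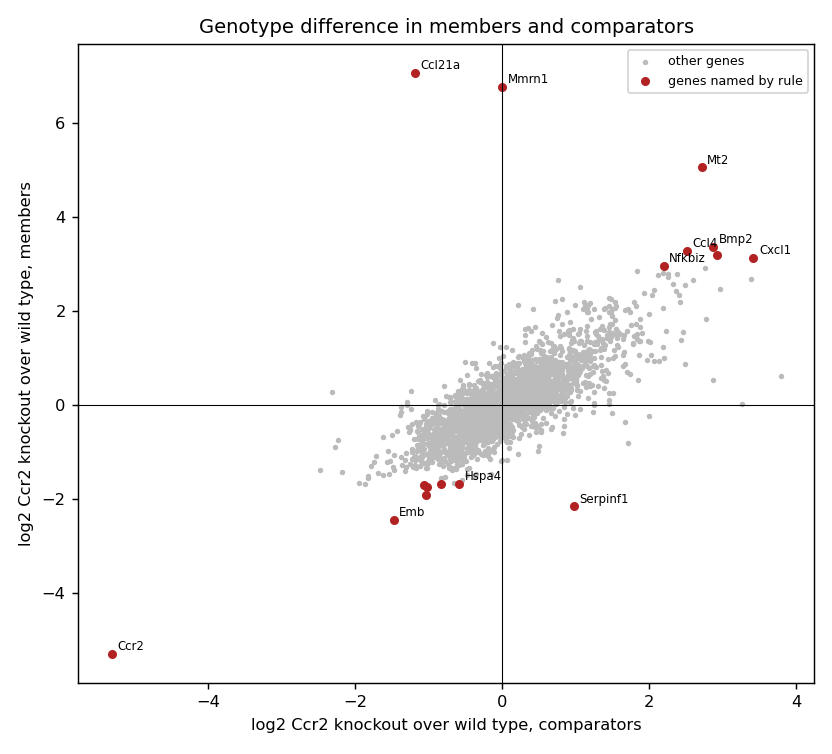
Log2 ratio of the Ccr2 knockout to the wild type in comparators (x axis) and members (y axis), 1 point per gene. Most genes lie along the diagonal, Ccr2 is lowest at -5.31 and -5.28, and Mmrn1 and the Ccl21a copy are high in members through the 2 cells that went against the macrophage label.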

How the data were processed

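Per the labels, each library was made with the 10x Genomics 3′ v2 protocol. The authors deposited raw UMI counts, in whole numbers, for every gene in every cell, and the submitters' processing notes name Cell Ranger 3.0.1 and mm10. Annotation and cell calling are not given in the sources used here. Coordinates are from GENCODE M21 (GRCm38), where 98.7% of 27998 gene IDs were found.

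From these counts, cells were kept and members and comparators chosen as described above, without replacement and from the deepest member down. UMIs were summed over each group and scaled to 1000000 (CPM). Fold intervals are exact conditional binomial intervals at the 95% level. Doublets, scored per lane with Scrublet (scanpy 1.11.5), were kept in the main values and removed in an alternative. Calculations used numpy 2.4.6 and scipy 1.17.1. The calculation of ratios and intervals was checked on Poisson counts drawn from the summed comparator profile. Such counts hold no spread between cells, so this check does not cover genes with many UMIs in a single cell.

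The members and gene lists were chosen with earlier results of these data known. Named genes are the 4 rule genes, the 15 higher and 12 lower with the highest value of the smaller ratio of the libraries, and the 8 highest and 8 lowest between genotypes. Rule, mitochondrial, haemoglobin and sex-linked genes were barred from these ranks, and their removal from the count of genes compared in both libraries was decided after a first pass. So were the genes in the split by rule-gene UMIs. Alternatives covered pseudocount, level minimum, scaling, comparators, thresholds, doublets and lanes.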

Additional observations from a re-analysis of the deposited data

Results flagged for a closer look

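Genes with opposite directions in the compared groups were picked out with limits (2-fold, and 0.5 on the log2 scale in comparators) set after values were seen, and none of these differences was tested. Acta2, a smooth muscle actin, was higher in members than in comparators in the wild type (log2 2.16) and lower in the knockout (-1.53), where 1 comparator held 83.0% of the comparators' UMIs. The knockout value was above 0 under 3 alternatives, at 0.71 with 1 comparator, 1.51 with at least 5 C1q UMIs and 0.70 with at least 5 rule UMIs. The Ccl21a copy ENSMUSG00000094686 was higher in knockout than in wild-type members (7.05) through 2 cells. In comparators the value was -1.19 on 0 knockout and 2 wild-type UMIs (fold interval 0 to 10.2), which shows no direction. Serpinf1, which encodes PEDF, a secreted protein of the serpin family, was lower in knockout than in wild-type members (-2.15) and higher in knockout comparators (0.97), at 19.6 against 90.5 CPM in members and 13.5 against 6.37 CPM in comparators.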

How the results depend on the processing

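With 1 library per genotype the depth, 408917 UMIs in knockout and 784703 in wild-type members, limits what can be seen at low levels, and 3 counts correspond to 7.34 and 3.82 CPM. No paired analysis was possible because each genotype has 1 library and the labels carry no replicate numbers. Counts of genes are called the same within 1.5 times, single genes within 0.5 (log2), list medians within the difference between the wild-type lanes, and shares within their interval; the limits for single genes and lists were set after values were seen. Of 160 alternatives of the main values 109 were the same, 51 moved and 0 reversed; of 5312 for single genes 4944 were the same, 350 moved and 18 reversed; of 1628 for counts within lists 1458 were the same. Of the 27 named genes, 17 to 27 were still called in both libraries. A wider limit for list medians and a shorter gene set without the lists of other cell types were tried after these results and dropped, because they marked fewer values as moved or reversed. The medians of 3 lists, picked after the list results were seen, were followed.

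Genes higher and lower in wild-type members numbered 123 and 93 with a pseudocount of 10 CPM, 83 and 71 with a minimum of 50 CPM, 606 and 441 with a minimum of 5 CPM, and 507 and 414 with lane 2 only; at least 5 rule UMIs gave 251 lower. In the knockout they numbered 194 and 225 with 10 CPM, 139 and 156 with a minimum of 50 CPM, and 944 and 920 with 5 CPM; at least 5 rule UMIs gave 624 higher. In both libraries 57 higher and 46 lower remained with 50 CPM, and 192 and 143 were called with 5 CPM. Between genotypes 404 were higher with lane 2 only and 240 lower with median-of-ratios scaling.

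The perivascular list had a wild-type median of 1.63 with 50 CPM, 1.70 with 5 CPM, 1.45 with median-of-ratios scaling, 1.69 with 1 comparator, 1.73 with at least 5 rule UMIs and 1.61 with lane 2 only. In the knockout it was 1.50 with a pseudocount of 10 CPM, 1.49 with a minimum of 50 CPM, 1.65 with 5 CPM, 1.42 with median-of-ratios scaling, 1.46 with 1 comparator, 1.46 with at least 5 C1q UMIs, 1.76 with at least 5 rule UMIs and 1.64 with at least 2 rule genes. The MHC class II median was -0.24 in the wild type and -0.48 in the knockout with median-of-ratios scaling. The chemokine median was 0.65 with 1 comparator in the wild type, and in the knockout 1.30 with 50 CPM, 0.35 with median-of-ratios scaling, 0.63 with at least 5 C1q UMIs, 1.07 with at least 5 rule UMIs and 0.63 with 500 genes and 5% mitochondrial UMIs. The share of members was 0.365% and 0.745% at 1000 UMIs, 1.29% and 2.70% at 2000, 3.35% and 4.06% without thinning, and 0.561% with wild-type lane 2 only.

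Reversed single genes were Ly6a in the wild type (0.22 with 1 comparator, 0.71 without doublets, 0.45 with lane 1 only), Anxa2 there (0.40 with lane 2 only), S100a6 in the knockout (0.52 with at least 5 rule UMIs), Acta2 there (0.71 with 1 comparator, 1.51 with at least 5 C1q UMIs, 0.70 with at least 5 rule UMIs), Tagln there (0.62 with 1 comparator) and Lyz1 between genotypes (0.22 in members with 2000 to 6000 UMIs). The haemoglobin genes of the knockout reversed with at least 5 C1q UMIs and with the stricter cell filter: Hba-a1 to 4.69 and 5.21, Hba-a2 to 3.94 and 4.81, Hbb-bs to 2.94 and 3.32, and Hbb-bt to 3.24 and 3.69. In the main comparison 1 knockout member held 1718 of the members' 1900 UMIs of the erythroid list (haemoglobin genes and Alas2). Likewise 1 knockout comparator held 9237 of the comparators' 9593. The cause of the reversals was not tested.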

Other observations

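Haemoglobin transcripts were found in most knockout cells compared. In the knockout 76.4% of members and 79.7% of comparators held at least 1 UMI of the erythroid list, and in the wild type 13.9% and 9.90%. A single wild-type comparator held 15478 such UMIs, a single knockout comparator 9237 and a single knockout member 1718. Members held 18.9% of the Ccl8 UMIs of all wild-type cells and 62.7% of those of Tslp, while they made up 3.35% of the cells and 3.79% of all UMIs. In the knockout they held 14.2% of Ccl8 and 36.2% of Tslp UMIs. The Ccl8 shares rested in part on single cells. Among wild-type members 1 cell held 318 of the 452 Ccl8 UMIs of lane 2, and 1 cell 237 of the 782 of lane 1. Among knockout members 1 cell held 22.6%.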
